A study of Rattus norvegicus with 72 samples.

Results

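The motile cilium genes described here are the 55 rows of a rat lung count table, of 30042 gene symbols in all, whose symbol begins with Dnah, Dnai, Dnal, Rsph, Tekt, Cfap, Drc or Ift, together with Foxj1, Tppp3, Dynlrb2, Ccdc39 and Ccdc40. The choice used symbols only and no measured value. Of these genes, 39 were grouped by symbol as parts of the beating axoneme and are called structural members. Another 14 encode intraflagellar transport (Ift) subunits and are called transport members, and Foxj1 and Tppp3 were kept apart. Dynlrb2 was placed with the structural dynein light chains, although the related Dynlrb1 stands in the list of Ift motors used below, and its place was not tested. RNA was sequenced from a piece of lung of 72 adult male Sprague-Dawley rats, 1 library per animal and 6 animals in each of 12 groups. Whole-body chambers supplied either filtered air or diesel exhaust particles (DEP), at a concentration of 200 or 1000 ug/m3, for 6 hours a day on 4 days, and lungs were taken 1, 7 or 27 days later. Each exposed group had air rats of its own at the same day, called air H for 1000 ug/m3 and air L for 200 ug/m3 after the letters in the sample titles, whose meaning is not given in the sources used here. All groups share strain and sex, the labels name no genetic change, and the comparisons ask whether axoneme transcripts differed after either concentration and at each time.

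Motile cilia are the beating hairs of the airway epithelium that carry mucus, with what is caught in it, out of the lung. Their axoneme is driven by dynein arms built of heavy, intermediate and light chains, and is held in register by radial spokes, nexin links and rulers, while trains of Ift proteins carry building blocks along it. Motile axoneme genes are used by multiciliated cells and are switched on by Foxj1, a forkhead transcription factor, with the RFX factors that bind the X-box motif, whereas Ift proteins also build the immotile primary cilium that most cell types carry.

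Library totals ran from 1042336 to 2397971 counts at day 1, from 3471134 to 6279763 at day 7 and from 3761631 to 6520180 at day 27. Outside these ranges stood 3 shallow libraries, all from 1000 ug/m3 rats: animal 037 (day 7, 105453 counts), animal 024 (day 27, 439393) and animal 045 (day 27, 149004). Day 1 and depth therefore cannot be told apart. Every member had counts. The least counted were Rsph4a with 44 in all, Rsph6a with 100 and Dnah8 with 120, while 48 members passed the filter on low counts at day 1, 51 at day 7 and 52 at day 27. The 3 marker genes were present in all 72 libraries: Foxj1 lay between 8.78 and 52.7 CPM (counts scaled to a common library total of 1e+06), Tppp3 between 246 and 668, and Dynlrb2 between 3.77 and 31.6. The lowest Foxj1 value is 1 count in the shallow library of animal 037, and the highest Dynlrb2 value came from the shallow library of animal 045. Levels in CPM are not corrected for gene length. Where members are called abundant or scarce, or are summed, gene length is therefore part of the value. In a piece of lung, fewer ciliated cells and less of a transcript per cell cannot be told apart.

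Promoter sequence was searched for letters of the X-box and of forkhead sites, since these belong to the factors above. RefSeq promoters of the assembly GRCr8 were found for 44 members, 33 structural and 11 transport, and the 250 bases before each gene start were read on both strands. An X-box form of 13 letters, GTTNCC and GNAAC with 2 bases between them, where N is any base, stood before 5 of 33 structural members (15.2%), 0 of 11 transport members and 0.51% of all 27457 genes with a promoter. These 5 and the only member with the same arms 3 bases apart, Cfap44, are shown 5′ to 3′ on the gene's strand, with the matched letters in capitals, so that the shared letters can be compared.
Dnah9, an outer arm heavy chain, chr10:51364040-51364112, minus strand: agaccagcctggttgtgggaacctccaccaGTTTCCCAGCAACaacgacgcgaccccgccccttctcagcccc
Dnai1, an outer arm intermediate chain, chr5:61525950-61526022, plus strand: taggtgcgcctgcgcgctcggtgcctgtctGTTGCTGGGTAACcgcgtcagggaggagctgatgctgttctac
Dnai2, the other outer arm intermediate chain, chr10:100258930-100259002, plus strand: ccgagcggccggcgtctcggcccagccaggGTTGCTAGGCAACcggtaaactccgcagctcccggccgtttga
Dynlrb2, a roadblock dynein light chain, chr19:61429020-61429079, plus strand: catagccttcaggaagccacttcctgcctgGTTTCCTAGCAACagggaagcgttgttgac
Tekt2, a tektin filament protein of the axoneme, chr5:143907725-143907790, minus strand: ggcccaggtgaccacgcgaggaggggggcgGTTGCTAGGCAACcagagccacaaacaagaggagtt
Cfap44, a tether of an inner dynein arm, chr11:69789906-69789952, minus strand: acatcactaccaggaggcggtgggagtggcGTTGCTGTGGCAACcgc
Dnai2 and Tekt2 carry the identical letters GTTGCTAGGCAAC. Dnah9 and Dynlrb2 match on the gene's strand and the other 4 on the opposite strand. The matches began between 17 bases (Cfap44) and 119 bases (Dnah9) before the gene start. Among all genes, 0.645% carry the arms 3 bases apart. The shorter GTTGCC, the left arm of the X-box, stood before 10 of 33 structural members (30.3%), 3 of 11 transport members (27.3%) and 10.8% of all genes, and its reverse complement GGCAAC lies inside the capitals of Dnai2, Tekt2 and Cfap44. The forkhead letters GTAAACA stood before 4 structural members (12.1%), 0 transport members and 3.54% of all genes. CCAAT, a general promoter element, stood before 39.4% of structural members, 45.5% of transport members and 36.1% of all genes. The palindrome of GTTGCC, AT and GGCAAC stood before 0 members and 0.0182% of all genes, and GTTNCC and GGNAAC with 2 bases between them before 0 members and 0.382% of all genes. GTTGCC stood 4 bases before CAAC and 3 bases before GCAAC only in Cfap44 among members, with 0.255% and 0.149% of all genes. These 9 overlapping patterns were settled after some matches had been seen. They describe letters and not binding.

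The structural members varied together from animal to animal within groups, and the transport members varied with them over a narrower range. Summed over the 39 structural members, the level lay between 882 CPM (animal 013) and 2039 CPM (animal 016) within the single group of 1000 ug/m3 at day 7, where the median was 1161 and the highest animal stood 2.31-fold above the lowest. The highest over the lowest animal of a group was 1.31-fold to 2.31-fold over the 12 groups, with a median of 1.62-fold. The 12 group means spanned less than that, from 1245 ± 288 CPM in air H at day 7 to 1680 ± 372 in air L at day 27 (SD, n = 6 each), a ratio of 1.35. For the 14 transport members the highest over the lowest animal was 1.05-fold to 1.32-fold (median 1.21-fold), and the group means ran from 452 ± 8.94 CPM in air L at day 1 to 513 ± 36.9 in air L at day 27, a ratio of 1.13.

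**Figure D1:**
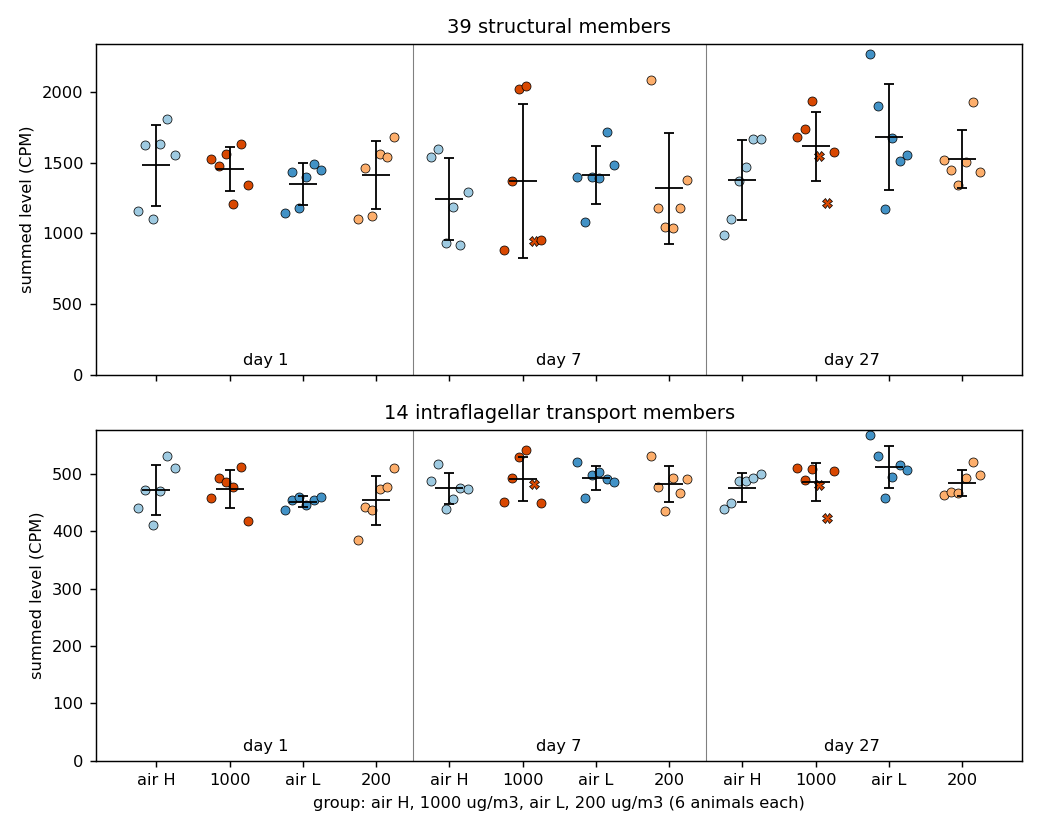
Summed level in CPM (linear axis from 0) of the structural members above and the transport members below, 1 point per animal in each of the 12 groups, with the mean and SD as bars and the 3 shallow libraries as crosses. The structural points spread over 882 to 2265 CPM and overlap between all groups of a day, while the transport points stay between 386 and 569 CPM.

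In order of their means at day 7, the structural sums were 1245 ± 288 CPM in air H, 1318 ± 394 after 200 ug/m3, 1369 ± 541 after 1000 ug/m3 and, highest, 1411 ± 203 CPM in air L. The day 27 values were 1378 ± 283 in air H, 1528 ± 205 after 200 ug/m3, 1614 ± 241 after 1000 ug/m3 and again highest, 1680 ± 372, in air L. The order at day 1 was 1348 ± 148 in air L, 1412 ± 240 after 200 ug/m3, 1457 ± 156 after 1000 ug/m3 and 1480 ± 284 in air H. Each of these neighbours differed by less than the SD of either group. Over the 12 groups, Foxj1 had its lowest median, 18.7 CPM, after 200 ug/m3 at day 7 and its highest, 32.1 CPM, in air L at day 1. Tppp3 medians ran from 305 CPM after 1000 ug/m3 to 487 CPM after 200 ug/m3, both at day 1, and Dynlrb2 medians from 7.28 CPM after 200 ug/m3 at day 1 to 17.6 CPM after 1000 ug/m3 at day 27. Without the shallow libraries the structural means of 1000 ug/m3 were 1453 CPM at day 7 and 1731 at day 27. Both then stood above air L of the same day.

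Spread between animals was also taken gene by gene as the biological coefficient of variation, the part of the spread within groups that edgeR's model does not assign to counting. Its median was 22.3% over the 36 structural members that could be fitted, 9.40% over the 14 transport members and 9.75% over all 14956 genes fitted. Above the all-gene median stood 32 of 36 structural and 6 of 14 transport members. Dynein heavy chains had a median of 23.5% (13 members), from 14.4% for Dnah11, an outer arm chain, to 29% for Dnah7, an inner arm chain. The intermediate chains Dnai1 and Dnai2 stood at 27.5% and 27.1%, and the rulers Ccdc39 and Ccdc40 at 21% and 28%. Foxj1 itself had 25.5% and Tppp3, a tubulin-binding protein of ciliated cells, 14%.

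A few structural genes did not share this spread. Cfap20, an inner junction protein of microtubules, had 6.33%, and the dynein light chains Dnal4 and Dnal1 had 7.61% and 9.04%. Tekt5, at a mean level of 2.54 CPM, had 0.988%, the smallest value fitted for any gene, and no small spread is read from it. Its SD within groups on the log2(CPM + 1) scale was 0.54, and 0.44 without the shallow libraries. Ift values were narrow, from 5.15% for Ift20 to 12.1% for Ift81, both of transport complex B. On the log2(CPM + 1) scale, where counting error is included, the median SD within groups was 0.43 for the 32 structural members of at least 5 CPM, 0.23 for the 14 transport members and 0.25 for the 12477 genes of at least 5 CPM. On this scale Dnah2, Dnai2 and Tekt2 spread most among structural members (0.73, 0.69 and 0.68) and Ift27, Ift22 and Ift74 most among transport members (0.63, 0.38 and 0.30). Dnah2 was at 0 in 1 shallow library and Dnai2, Tekt2 and Ift27 in 2 of them, and without the shallow libraries their SDs were 0.42, 0.46, 0.32 and 0.28. The smallest SDs were those of Cfap20, Dnah11 and Dnal4 (0.22, 0.24 and 0.25) and of Ift20, Ift52 and Ift122 (0.14, 0.17 and 0.18). Without the shallow libraries the medians were 0.37, 0.22 and 0.21.

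Co-variation was measured as the Pearson correlation (r) of a gene's deviation from its group mean with that of the summed other structural members over the 72 animals, on log2 scales. All points of such a correlation share a library, its depth and its scaling, so the values are a description. The median r was 0.65 over the 39 structural members and 0.42 over the transport members. It was 0.055 over the 12429 other genes of at least 5 CPM, of which 1.71% reached 0.5. Among structural members 26 of 39 reached 0.5, all of them of at least 5 CPM, whereas 1 of 14 transport members did, Ift172 at 0.51. Dnah9 (0.93), Dnah6 (0.92) and Cfap44 (0.91) were the closest to the others, and heavy chains as a class had a median of 0.85 (14 members). Medians were 0.79 for Cfap (5 members), 0.75 for nexin link and ruler genes (3), 0.64 for intermediate chains (2) and 0.47 for light chains (4). Radial spokes (6) and tektins (5) had medians of 0.35 and 0.31, below that of the transport members. Abundant heavy chains such as Dnah12, at a mean of 186 CPM, weigh most in the structural sum. Cfap20 (-0.06) and Dnal4 (-0.08) did not follow, and 6 structural members stood under 0.1, among them the scarce Rsph4a, Rsph6a, Dnah8 and Dnah17. The most abundant members of the other classes lay between, with Dnah12 at 0.90, Cfap43 at 0.86, Dnah11 at 0.80, Rsph10b at 0.78, Ccdc39 and Ccdc40 at 0.75, Dynlrb2 at 0.67, Tekt1 at 0.66, Dnai1 at 0.65, Dnai2 at 0.64, Rsph3 at 0.34 and Tekt2 and Dnal1 at 0.31. Ift22, a small GTPase of complex B, stood at 0.058, and Ift140 and Ift122 of complex A at 0.18 and 0.28.

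**Figure D2:**
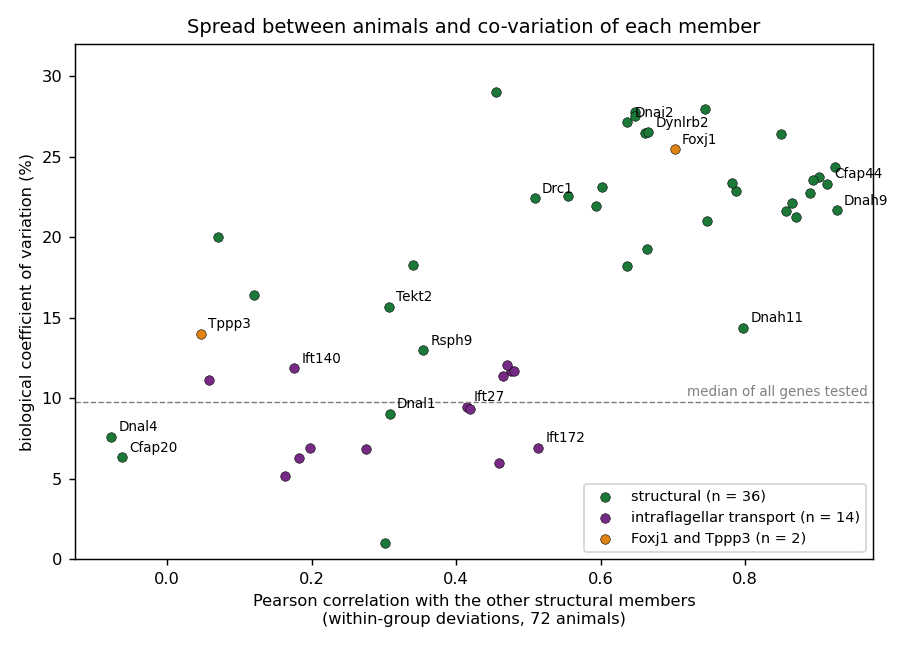
Each point is a member, with its correlation with the other structural members over 72 animals on the horizontal axis and its biological coefficient of variation in percent on the vertical axis. Structural members such as Dnah9 and Cfap44 lie at the upper right, transport members between 5.15% and 12.1%, and Cfap20 and Dnal4 at the lower left.

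Taken as sums, the transport members kept in step with the structural members but with a smaller amplitude. Their deviations had r = 0.79 and Spearman's rho = 0.78 over 72 animals, and r = 0.77 without the 2 animals farthest from the median. The slope was 0.25, so a structural deviation of 1 log2 unit went with 0.25 log2 units of transport. Within days r was 0.77, 0.83 and 0.89 at days 1, 7 and 27 (24 animals each), and within letters 0.80 for H and 0.77 for L.

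Other axoneme and airway genes were read from pathway and cell type lists. The sum of docking complex, central pair and other axoneme genes (37 in the table) had r = 0.97 with the structural sum and a slope of 0.92, the dynein arm assembly factors (13) had 0.87 with a slope of 0.56, and the multiciliated cell programme (13, Foxj1 among them) had 0.87 with a slope of 0.57. Lower values were seen for Ift motors and subunits under other names (22 genes, r = 0.70, slope 0.22) and for the BBSome (8 genes, r = 0.54, slope 0.20), a coat complex of cilium membrane traffic. Club cells are the secretory cells that lie beside ciliated cells in the airway. Their list (12 genes, of which Kcnj16 and Cckar were under 1 CPM) had r = 0.90 and a slope of 0.88, and 0.86, 0.94 and 0.90 within days 1, 7 and 27. Scgb1a1, the club cell secretoglobin, made up 76.4% of that sum and had r = 0.85, and the median over the 9 others of at least 1 CPM was 0.57. Over the libraries the club cell sum ran from 1340 to 4727 CPM.

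Ciliated cell markers that are no members had r = 0.74 as a sum, of which Sec14l3 alone made up 66.9% with r = 0.11, while 16 of the 18 others of at least 1 CPM reached 0.5 (median 0.62, Hydin of the central pair highest at 0.96). Among other cell types, type I pneumocyte genes of the gas exchange surface (10) had r = 0.08 (-0.02 without the shallow libraries), type II pneumocyte genes (12) -0.27, and macrophage genes (9) -0.12. The goblet and gland sum had -0.08, but 99.3% of it was the lysozyme gene Lyz2 (r = -0.10), and among the 7 others of at least 1 CPM 5 reached 0.5: Bpifb1 (0.82), Agr2 (0.74), the mucin Muc5b (0.70), Clca1 (0.66) and Bpifa1 (0.60). Muc5ac was under 1 CPM. The airway basal cell sum had -0.15, but 76% of it was Col17a1 (r = -0.24), Krt15 and Ngfr had 0.39 and 0.23, and Krt5, Krt14, Krt17, Tp63, Aqp3 and Dapl1 were under 1 CPM. Smooth muscle genes (8) had 0.38, cartilage genes (11) 0.26, cardiac muscle genes of the pulmonary veins (10) 0.51, and mesothelium genes of the lung surface (8) -0.58. The share of airway in the piece of lung taken was not measured, and its part in the co-variation was not tested.

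**Figure D3:**
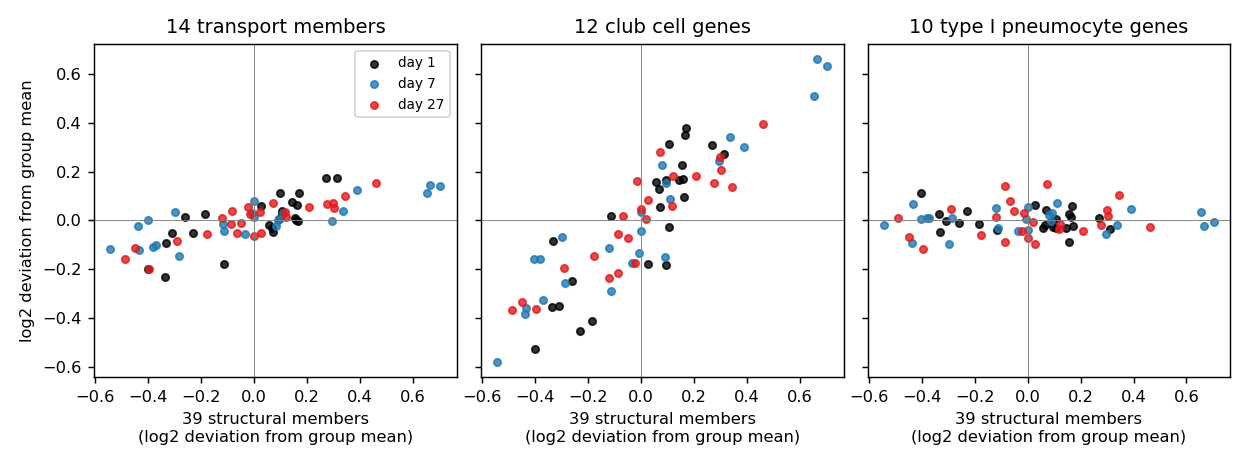
Deviation of each animal from its group mean (log2 units), with the structural sum on the horizontal axis of every panel and the sum of the transport, club cell or type I pneumocyte genes on the vertical axis, coloured by day. Transport rises with a slope of 0.25, club cell genes with a slope of 0.88, and type I genes stay near 0 (r = 0.08).

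Foxj1 followed the structural genes at the later days but not at day 1. Its r with the summed structural members was 0.03 at day 1, 0.90 at day 7 and 0.83 at day 27 (24 animals each; rho 0.027, 0.90 and 0.77). Without the 2 animals farthest from the median the values were 0.03, 0.86 and 0.81, and without shallow libraries 0.93 at day 7 and 0.81 at day 27. The median r of single structural members with Foxj1 was -0.01, 0.78 and 0.56 at the 3 days. Foxj1 was counted 22 to 67 times per library at day 1 (median 43), against medians of 94.5 at day 7 and 120 at day 27, so its own counting error was larger at day 1. How much of the difference between days goes with depth was not tested. Structural members themselves kept together at day 1, with a median r of 0.58 against 0.72 and 0.66 later.

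Tppp3 had r = -0.57 with the structural sum at day 1 (rho -0.62), 0.30 at day 7 and 0.42 at day 27, although it was counted 270 to 1102 times per library at day 1. At day 1, 32 of 39 structural members had a negative r with Tppp3, against 7 at day 7 and 5 at day 27. Animals 049 and 051 of air L held the highest Tppp3 levels of day 1, and without them r was -0.48. At day 1 Tppp3 also had r = -0.63 with the club cell sum, 0.67 with the type II pneumocyte sum and 0.72 with the airway basal cell sum, which is mostly Col17a1. Its r with the sum of ciliated cell markers was 0.19 at day 1, 0.32 at day 7 and 0.47 at day 27. With the macrophage sum it was 0.48, 0.67 and 0.11. Over all 72 animals Tppp3 had r = 0.05 with the structural members. Without shallow libraries the later values of Tppp3 were 0.15 and 0.33. Dynlrb2 had r = 0.65, 0.85 and 0.30 at the 3 days, and r at day 27 was 0.68 once its 2 shallow libraries were left out, where Dynlrb2 was counted as few as 4 times, and 0.10 without the 2 animals farthest from the median.

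**Figure D4:**
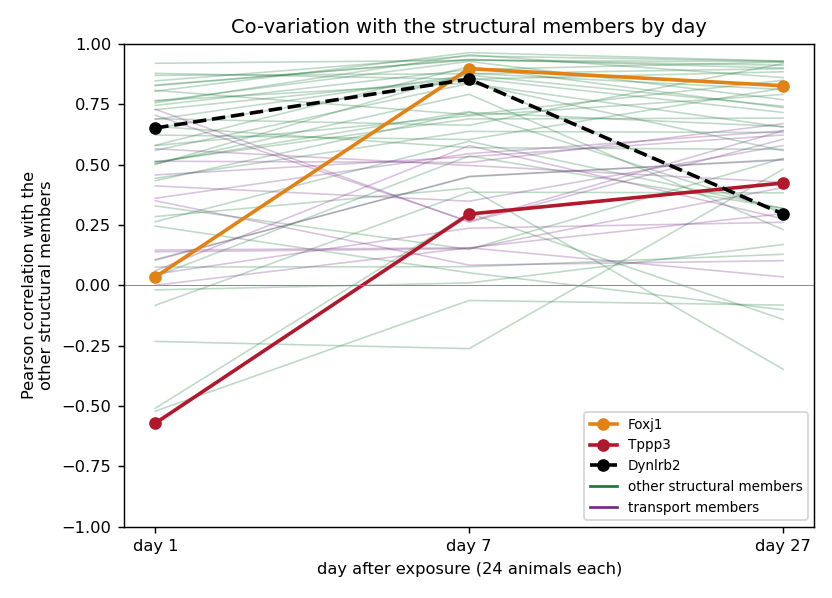
Pearson correlation with the other structural members at days 1, 7 and 27 (24 animals each), 1 line per member. Foxj1 runs from 0.03 to 0.90 and 0.83, Tppp3 from -0.57 to 0.30 and 0.42, and Dynlrb2 from 0.65 to 0.85 and 0.30, while the median structural member lies at 0.58, 0.72 and 0.66.

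The non-member genes most like Foxj1 over the 72 animals, by the same correlation and of 12429 candidates, were Ldlrad1 (0.76), Cyp2f4 (0.74), Ttc21a (0.73), Prr29 (0.73), Shc2 (0.72), Ubxn11 (0.72), RGD1565512 (0.71), Maats1 (0.71), Vwa3a (0.71) and Lrrc56 (0.71). Cyp2f4 is a cytochrome P450 of club cells. The structural members with the highest values were Dnah10 (0.76), Dnah1 (0.74), Dnah2 (0.73) and Dnah9 (0.73), and Dnah10 and Ldlrad1 were equal at 2 decimals. Transport members had a median r of 0.18 with Foxj1, against 0.53 for structural members and 0.075 for the other genes.

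In lungs exposed to 1000 ug/m3, most structural members had fold changes above 0 at days 7 and 27, and no member passed the test at any day. At day 1, 14 of 32 structural members tested lay above 0 with a median log2 fold change of -0.03, where 49.7% of all 12304 genes lay above 0. At day 7 it was 34 of 35 with a median of 0.22, against 49.8% of all genes, and at day 27 it was 33 of 36 with a median of 0.27, against 50.4%. Transport members had medians of 0.08, 0.08 and 0.13, with 8, 10 and 11 of 14 above 0. As the members move together in each animal, such counts amount to few independent observations. By edgeR's quasi-likelihood test with Benjamini-Hochberg adjustment over all genes, 0 members were called at each of the 3 days, where 0% of all genes were called. At an unadjusted p under 0.05 there were 0 members at day 1 (3.41% of all genes), 1 at day 7 (4.39%) and 12 at day 27 (7%).

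Foxj1 at day 27 lay between 18.96 and 33.4 CPM after 1000 ug/m3 (median 26.6) and between 11.6 and 29.8 in air H (median 22.6). The ranges overlapped, and the log2 fold change was 0.42 (SE 0.18, adjusted p = 0.686 by edgeR). Tppp3 lay between 341 and 451 CPM (median 390) after exposure and between 290 and 353 in air H (median 335). All 6 exposed animals stood above the air median, and the fold change was 0.31 (SE 0.08, adjusted p = 0.459). Dynlrb2 lay between 8.92 and 31.6 CPM (median 17.6) against 8.15 to 14.2 (median 11.6), with 0.52 (SE 0.19, adjusted p = 0.65). Both ends of this exposed range came from the shallow libraries of animals 024 and 045, where Dynlrb2 was counted as few as 4 times. The lowest exposed Foxj1 level, 18.96 CPM, was also that of animal 045 and rests on 3 counts. Dnal4, a dynein light chain that did not follow the other structural genes between animals, lay between 19.1 and 25.3 CPM after exposure and between 15 and 18.1 in air H, without overlap, at 0.35 (SE 0.10, adjusted p = 0.46). The highest exposed Dnal4 level, 25.3 CPM, was that of the shallow library of animal 045 and rests on 4 counts. Ift88, a core subunit of complex B, had the smallest p of the transport members at 0.21 (SE 0.11, adjusted p = 0.712).

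At day 7 the smallest p belonged to Tekt3, a tektin, with 6.68 ± 1.93 CPM after 1000 ug/m3 and 3.67 ± 1.13 in air H, a log2 fold change of 0.75 (SE 0.24, adjusted p = 1). It was counted at most 38 times in any of these 12 libraries. In the shallow library of animal 037 Tekt3 was counted 1 time, which stands as 8.78 CPM in the exposed group. Ift20 had 0.15 (SE 0.08, adjusted p = 1). Foxj1 stood at 28.6 ± 17.2 CPM against 24.5 ± 9.76 (0.40, SE 0.30), with exposed animals from 8.78 to 52.7 CPM. The value of 8.78 CPM is 1 count in the shallow library of animal 037. At day 1 the smallest p values were those of Tekt1 (-0.40, SE 0.25) and Ift80 (0.19, SE 0.15), both with an adjusted p of 1. The 95% interval of the fold change excluded a 2-fold difference in either direction for 48 of 48 members tested at day 1, 45 of 51 at day 7 and 50 of 52 at day 27. Among all genes it did so for 11830 of 12304, 13615 of 14331 and 13898 of 14761, so most genes were bounded in this way.

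After 200 ug/m3 most structural members had fold changes below 0 at days 7 and 27, and no member passed the test. Above 0 were 18 of 32 at day 1 (median 0.02; 49.8% of all genes), 8 of 35 at day 7 (median -0.13; 50.5%) and 9 of 36 at day 27 (median -0.11; 50.3%). Of 14 transport members 8, 6 and 2 lay above 0, with medians of 0.03, -0.01 and -0.09. By edgeR 0 members were called at each day, where 0%, 0.00698% and 0% of all genes were, and 1, 1 and 3 members had an unadjusted p under 0.05 (6.02%, 5.71% and 9.69% of all genes). At day 27 Tppp3 had a range of 284 to 421 CPM (median 331) in the 200 ug/m3 rats and of 383 to 462 CPM (median 419) in air L, at -0.26 (SE 0.08, adjusted p = 0.368). Ift172, a large complex B subunit, lay between 57.2 and 70.8 CPM against 64.3 to 84, at -0.21 (SE 0.07, adjusted p = 0.368). Tekt3 had -0.45 (SE 0.22, adjusted p = 0.508) at that day.

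Ift140 at day 7 ranged from 50.5 to 74.05 CPM in the 200 ug/m3 rats and from 74.08 to 94.1 CPM in air L, just without overlap, at -0.32 (SE 0.12, adjusted p = 0.715), and Dnai2 had -0.45 (SE 0.28, adjusted p = 0.926). At day 1 Ift22 stood at 9.76 ± 3.40 CPM against 5.97 ± 1.57 (0.71, SE 0.28, adjusted p = 0.794) from 4 to 20 counts per library, and Dnai2 had 0.49 (SE 0.28, adjusted p = 0.853). The interval excluded a 2-fold difference for 46 of 48, 49 of 51 and 52 of 52 members at the 3 days. Among all genes it did so for 11816 of 12304, 13704 of 14331 and 14062 of 14761.

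Of the related axoneme and cell type lists, 0 genes passed the test in any exposure comparison. After 1000 ug/m3 at day 27, 34 of 36 docking and central pair genes lay above 0 (median 0.29), with 10 of 12 arm assembly factors (0.24), 16 of 20 Ift motor and related genes (0.06) and 7 of 8 BBSome genes (0.18). The same comparison had 18 of 19 ciliated cell markers that are no members (median 0.39), 10 of 10 club cell genes (0.38) and 8 of 8 cardiac muscle genes (0.43) above 0, against 6 of 10 type I genes (0.01) and 1 of 7 mesothelium genes (-0.39). At day 7 it was 29 of 35 docking and central pair genes (0.23), 18 of 19 ciliated (0.32) and 9 of 10 club cell genes (0.28). After 200 ug/m3 at day 27, 8 of 36 docking and central pair genes (-0.06), 1 of 19 ciliated (-0.17) and 1 of 10 club cell genes (-0.32) lay above 0, and smooth muscle had 8 of 8 (0.21). Day 1 did not share these directions. After 200 ug/m3, 23 of 26 docking and central pair genes (0.15), 14 of 15 ciliated (0.21) and 5 of 8 club cell genes (0.12) lay above 0. After 1000 ug/m3 the values were 12 of 26 (-0.03), 3 of 15 (-0.07) and 4 of 8 (-0.06). The part of these cell types in the values of the members was not tested.

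**Figure D5:**
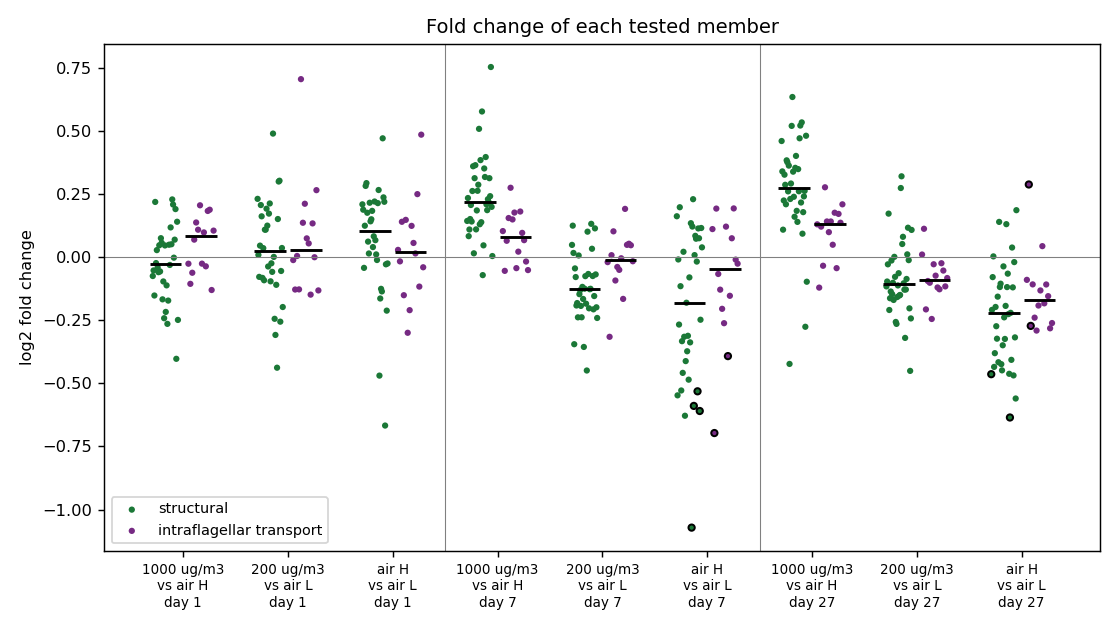
Log2 fold change of each tested member in the exposure comparisons and in air H against air L at each day, structural members in green and transport members in purple, with the median as a bar and black rims on members that passed edgeR's adjusted threshold of 0.05. At day 27 the structural median is 0.27 for 1000 ug/m3, -0.11 for 200 ug/m3 and -0.22 for air H against air L, and rims appear in the air comparisons of days 7 and 27.

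The effects of the 2 concentrations were subtracted to test whether they differed. At day 27 the difference lay above 0 for 33 of 36 structural members (median 0.36; 50.4% of all genes) and 12 of 14 transport members (median 0.22). Tppp3 was at 0.57 (SE 0.12, adjusted p = 0.154 by edgeR), Dynlrb2 at 0.84 (SE 0.26, adjusted p = 0.197), Dnah5, an outer arm heavy chain, at 0.78 (SE 0.22, adjusted p = 0.172), Ift172 at 0.33 (SE 0.10, adjusted p = 0.192) and Foxj1 at 0.55 (SE 0.25, adjusted p = 0.34). No member was called by edgeR (0% of all genes), and 16 had an unadjusted p under 0.05 (13.3% of all genes). DESeq2 called 1 member, Tppp3, and 0.464% of the 7320 genes to which it gave an adjusted p, of 14761 tested. At day 7, 34 of 35 structural members lay above 0 (median 0.38; 49.4% of all genes) with 0 calls (0% of all genes) and 2 members under an unadjusted 0.05 (5.21%), and at day 1 it was 11 of 32 (median -0.08; 50.1%) with 0 calls (0.00813%) and 0 under 0.05 (4.36%). The smallest p of day 7 belonged to Dnai2 (1.03, SE 0.42) and Ift140 (0.26, SE 0.17) and those of day 1 to Dynlrb2 (0.67, SE 0.38) and Ift81 (-0.40, SE 0.22), with adjusted p from 0.932 to 0.998. Each such difference rests on 4 groups, the air groups included.

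Joined over days and concentrations, with each day and letter as a set of its own, all exposed against all air lungs gave 29 of 36 structural members above 0 with a median of 0.06 (46.7% of all genes). Again 0 members were called (0.0134% of all genes), and 1 had an unadjusted p under 0.05 (4.23%), Ift140 at -0.11 (SE 0.05, adjusted p = 1), while the smallest p of the structural members was that of Rsph10b at 0.15 (SE 0.09). Foxj1 stood at 0.08 (SE 0.10, 95% interval -0.12 to 0.28) and Tppp3 at -0.02 (SE 0.05, interval -0.12 to 0.09). The interval excluded a 2-fold difference for 52 of 52 members and for 14885 of all 14956 genes.

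The air groups of the 2 letters differed in named members at days 7 and 27, and only Ift140 was called at both days, in opposite directions. At day 7, 6 of 51 members were lower in air H than in air L and 0 were higher, where 25.5% of all genes were called, and 8 had an unadjusted p under 0.05 (35.8% of all genes). In air H, Dnai2, the outer arm intermediate chain, lay between 2.74 and 7.05 CPM (median 5.07) and between 7.5 and 15 (median 10.5) in air L, without overlap, and fell by 1.07 on the log2 scale (SE 0.29, adjusted p = 0.00722 by edgeR). Ift140, a complex A subunit, lay between 37.7 and 60.2 CPM against 74.1 to 94.1, also without overlap (-0.70, SE 0.12, adjusted p = 5.93e-05). Tekt2 (-0.61), Dnali1, an inner arm light chain (-0.59), Rsph3, a radial spoke protein (-0.53), and Ift52 of complex B (-0.39) had overlapping groups and adjusted p of 0.0112, 0.0268, 0.0107 and 0.0023.

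Overlapping genes bear on some of these counts, because the strand setting of the counting is not given in the sources used here. In GRCr8, 10 members overlap another protein-coding gene. Ift140 overlaps Tmem204, which was higher in air H at day 7 (0.23, SE 0.07, adjusted p = 0.0112 by edgeR), the opposite of Ift140, and whose deviations had r = -0.14 with those of Ift140. Dnali1 overlaps Gnl2, which fell by 0.62 on the log2 scale (adjusted p = 1.68e-05 by edgeR), the same direction as Dnali1, with r = -0.04 between them within groups. Ift172 overlaps Krtcap3 with r = 0.46, the highest of the 5 pairs measured, and Krtcap3 stood at 0.07 (adjusted p = 0.872) in air H against air L at day 27. Dnah11 and Cdca7l had r = 0.27, and Ccdc39 and Ttc14 had 0.0056. The Dnah5 and Dnah7 genes each have a further row with the suffix -2, and reads may be split between such rows.

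In air H against air L at day 7, 10.3% of all genes rose and 15.2% fell, and the calls in each axoneme list below are a smaller share than the falls among all genes. Of these lists, 1 of 12 arm assembly factors (Dnaaf3, -0.95), 3 of 35 docking and central pair genes (Spef1, -0.63; Ccdc65, -0.62; Tcte1, -1.68), 1 of 9 genes of the multiciliated programme (Rfx2, an X-box binding factor, -1.08) and 1 of 20 Ift motor genes (Kifap3, the accessory subunit of the transport kinesin, -0.58) fell, and 0 rose. Of the ciliated cell markers outside the members, 1 of 19 rose (Sec14l3, 0.19), and of the club cell markers Aldh1a1 rose (0.29) and Scgb1a1 fell (-0.79) among 10. At the same time 5 of 12 type II and 7 of 10 type I pneumocyte genes fell and 2 type I genes rose. The part of these cell types in the result was not tested.

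At day 27, 5 of 52 members were lower in air H than in air L and 1 was higher, where 14% of all genes were called, and 15 had an unadjusted p under 0.05 (28.3% of all genes). Foxj1 lay between 11.6 and 29.8 CPM (median 22.6) in air H and between 22.6 and 38.4 (median 29) in air L, and fell by 0.54 (SE 0.17, adjusted p = 0.0348 by edgeR). Tppp3 lay between 290 and 353 CPM against 383 to 462, without overlap, and fell by 0.35 (SE 0.08, adjusted p = 0.00403). Dynlrb2 fell by 0.64 (SE 0.17, adjusted p = 0.0147), Ccdc39, a ruler of the axoneme repeat, by 0.46 (SE 0.14, adjusted p = 0.0258) and Ift172 by 0.27 (SE 0.07, adjusted p = 0.00664). Ift140 rose by 0.29 (SE 0.08, adjusted p = 0.0122), the opposite of day 7. In all, 31 of 36 structural members and 12 of 14 transport members lay below 0, with medians of -0.22 and -0.17, where 49% of all genes lay above 0.

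At day 27, 8.92% of all genes rose and 5.11% fell in air H against air L. Of the ciliated cell markers that are no members 4 of 19 fell (Fam183b, Capsl, Mlf1 and Ccdc153, at -0.39 to -0.66), of the club cell markers 4 of 10 (Scgb3a1, Scgb3a2, Aldh1a1 and Cldn10), of docking and central pair genes 3 of 36 (Ak8, Mns1 and Efcab1), of arm assembly factors 1 of 12 (Pih1d2), of Ift motor and related genes 3 of 20 (Dynlrb1, Hspb11 and Arl13b) of the BBSome 1 of 8 (Bbs5), of goblet and gland genes 2 of 6 (Agr2 and Lyz2) and of basal cell genes 1 of 3 (Krt15), and 0 genes of these lists rose. The club cell sum lay between 1960 and 2964 CPM in air H and between 2147 and 3644 in air L, and Krt5 and Tp63 of basal cells were under 1 CPM on average. Of 12 type II genes 3 rose, of 8 smooth muscle genes 2 and of 7 mesothelium genes 1. Of 9 genes of the multiciliated programme and of 10 type I genes 0 were called. The part of a different amount of airway in the result was not tested. Because air H of day 27 also serves as the control of the 1000 ug/m3 group, the 2 comparisons share animals. Side by side, Foxj1 stood at 21.2 ± 6.91 CPM in air H, 26.3 ± 4.8 after 1000 ug/m3, 27.5 ± 4.07 after 200 ug/m3 and 30.2 ± 5.80 in air L (SD, n = 6), and Tppp3 at 328 ± 25.9, 394 ± 50.8, 348 ± 53.3 and 418 ± 31.3.

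At day 1, 0 of 48 members were called between the air groups by edgeR, where 1.68% of all genes were, and 5 had an unadjusted p under 0.05 (19.8% of all genes). Rsph9 had the smallest p of the structural members at -0.67 (SE 0.24) and Ift81 of the transport members at 0.49 (SE 0.16), with adjusted p of 0.116 and 0.0797. DESeq2 called 1 member, Tppp3, which stood at 347 ± 42.5 CPM in air H and 488 ± 124 in air L. It called 6.32% of the 7056 genes to which it gave an adjusted p, of 12304 tested.

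Between day 7 and day 27 the air rats of the 2 letters moved differently in the same genes. Ift140 rose by 0.50 in air H (SE 0.10, adjusted p = 9.93e-05) and fell by 0.48 in air L (SE 0.10, adjusted p = 0.00038, by edgeR). Ift172 fell by 0.20 in air H (SE 0.07, adjusted p = 0.025) and rose by 0.27 in air L (SE 0.07, adjusted p = 0.00575), and Tppp3 fell by 0.30 (SE 0.09, adjusted p = 0.0125) and rose by 0.26 (SE 0.09, adjusted p = 0.0447). In air H Dnal4 fell by 0.51 (SE 0.10, adjusted p = 0.000103), from 18.3 to 28.5 CPM at day 7 to 15 to 18.1 at day 27, without overlap, Ift52 rose by 0.31 (SE 0.08, adjusted p = 0.00334) and Dnah17, counted at most 15 times per library, rose by 1.21 (SE 0.39, adjusted p = 0.0135). In air L Dnai2 fell by 0.72 (SE 0.27, adjusted p = 0.0492). That makes 3 rises and 3 falls of 52 members in air H, where 29.6% of all genes were called, and 2 rises and 2 falls in air L, where 19.1% were. The difference between the letters was not tested as such. Age, day of exposure and any handling that goes with day or letter cannot be told apart here.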

How the data were processed

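The deposited values are raw counts, with 30042 gene symbols as rows and 72 libraries as columns. Per the labels' protocols, libraries came from a stranded kit for total RNA, with ribosomal RNA depleted. Build Rnor_6.0 is listed in the submitters' processing notes beside these tools: HTSeq 0.6.1, SAMtools 1.8, HISAT2 2.1.0, Trimmomatic 0.35 and bcl2fastq 2.19. Strand setting and annotation release were not given, so reads of overlapping genes cannot be assigned with certainty.

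Groups came from sample titles and characteristics. Counts were tested with the robust quasi-likelihood test of edgeR 4.0.16 under R 4.3.3, after filterByExpr by group and with TMM factors, at a Benjamini-Hochberg threshold of 0.05: the 24 libraries of a day in 1 fit, the 48 of days 7 and 27 for the air rats between days, and all 72 with 6 day-and-letter sets for the joined test. Standard errors come from the F statistic. Levels are TMM-scaled CPM. Deviations are log2(CPM + 1) minus the group mean. Each rat is 1 replicate, so p-values measure the spread between rats. Alternatives were RLE factors, no TMM factors, no filter, a filter of 1 CPM in 6 libraries, DESeq2 1.42.0, limma-voom 3.58.1, only the 12 libraries compared, the animal number series as a block, a pseudocount of 0.25 CPM and fits without the 3 libraries below 500000 counts. Spread without those libraries was added after seeing the data. The scripts were tested on simulated counts.

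Named genes were the 5 members given by symbol, the 2 most abundant members of each class, up to 5 called members per comparison and direction, otherwise the structural and transport member of smallest p, the members of largest and smallest spread, and the 10 genes most like Foxj1. Other members were named after their values were seen. The members and lists were chosen with earlier results of these data known. Sequences and overlaps came from RefSeq tables of GRCr8, in which 53 of 55 symbols were found. Since the build of the counts differs, coordinates of that assembly belong to the sequences only.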

Additional observations from a re-analysis of the deposited data

Results flagged for a closer look

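Of 84 checks of 1 animal against the 5 others of its group, 5 passed Dixon's 95% limit, in 4 animals, and chance gives about 1 in 20 such groups. After 200 ug/m3 at day 7, animal 073 had a structural sum of 2082 CPM where the others lay between 1040 and 1380, and its Ccdc39 level was 32.9 CPM where the others lay between 20.6 and 23.05. After 200 ug/m3 at day 27, animal 093 had a structural sum of 1925 CPM, with the others between 1342 and 1518. In the 1000 ug/m3 group of day 27, animal 045 had a transport sum of 423 CPM, with the others between 482 and 511, and its library was 1 of the 3 shallow ones. In the 1000 ug/m3 group of day 1, animal 030 had a Foxj1 level of 37.7 CPM, with the others between 20.03 and 26.6.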

How the results depend on the processing

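Of 98 alternative counts of called members, 95 equalled the main count or stayed within 1.5 times of it. Most of these 95 are a main count of 0 that stayed 0, as in every exposure comparison, and say little about stability. DESeq2 called 1 member, Tppp3, in air H against air L at day 1 and again in the difference of the 2 effects at day 27, where edgeR called 0. Its shares were 6.32% of 7056 and 0.464% of 7320 genes with an adjusted p. Without a filter on low counts, 2 members and not 4 were called in air L between days 7 and 27, with 10.2% and not 19.1% of all genes. Air H against air L at day 7 gave 6 to 9 called members over the alternatives, with 9 in the fit of only the 12 libraries compared, where 29.7% and not 25.5% of all genes were called. No fold change of a named member changed direction. Without the 3 shallow libraries, the type I pneumocyte r with the structural sum went from 0.08 to -0.02, and the median SD within groups of transport members went from 0.23, below that of all genes (0.25), to 0.22, above it (0.21). Of the alternative values of single members, 397 kept their direction and their side of the threshold and 7 no longer passed the threshold, among them Foxj1 in air H against air L at day 27 (adjusted p = 0.0631 without a filter and 0.0977 in the fit of 12 libraries) and Dnai2 in air L between days (0.0509 to 0.0903 over 4 alternatives). No paired analysis was possible because no animal number occurs in more than 1 group and no label ties rats across groups. The depth of day 1 and of the 3 shallow libraries limits what can be seen of scarce genes such as Ift22, with 4 to 20 counts per library at day 1, and the cause of each change was not tested.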
